A study of Mus musculus with 8 samples.

Results

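Macrophage surface markers were followed in osteoclast cultures through 10 genes taken by name: Adgre1, Cd14, Fcgr1, Fcgr3, Fcgr2b, Mrc1, Msr1, Cd36, Cd163 and Marco. All 10 were found by their Ensembl identifiers among the 46517 genes of the deposited table, and all 10 were among the 14139 genes with enough signal to be tested, that is, 10 or more normalized counts in 4 or more of the 8 libraries. RNA-seq had been run on osteoclasts grown from the femoral marrow of 4 Elmo1-/- mice, which lack ELMO1 (a partner of DOCK proteins in activating the small GTPase Rac) throughout the body, and of 4 Elmo1+/- mice as controls, which carry 1 intact allele and which the library titles call WT. The mice were 6 to 8 weeks old, and marrow cells that stayed in suspension after 16 h of plating were grown on petri dishes with 10% L929 conditioned medium, a source of macrophage colony-stimulating factor (M-CSF). The study's methods describe collection of the attached cells after 3 days and replating in GST-RANKL at 50 ng/ml, the ligand that directs these precursors to become osteoclasts, for 7 days, whereas the labels give M-CSF and RANKL together for 7 days and mention no replating. Each mouse gave 1 library of 75 bp paired-end reads, numbered 1 to 4 within its genotype. No library came from a culture without RANKL, and the levels below describe whole cultures in which fused osteoclasts and any unfused cells were lysed together, and fewer cells of a type and less RNA per cell cannot be told apart.

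Osteoclasts arise when precursors of the monocyte and macrophage lineage fuse under M-CSF and RANKL, and the surface receptors that mark macrophages are carried into, or lost during, that transition to different extents. Fc gamma receptors bind the constant part of IgG; the activating forms signal through the shared chain FcRγ (Fcer1g) and the kinase SYK, a route that also serves osteoclast formation, and FcγRIIb (Fcgr2b) carries an inhibitory motif. Scavenger receptors (Msr1, Marco, Cd36, Cd163) take up modified lipoproteins, microbes, debris or haemoglobin, the mannose receptor (Mrc1) binds glycans and collagen fragments, CD14 presents lipopolysaccharide to TLR4, and F4/80 (Adgre1) is the classic surface marker of mouse macrophages.

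The labels held in the gene that was deleted. Elmo1 lay between 274 and 316 normalized counts in the 4 Elmo1-/- libraries and between 1423 and 1769 in the 4 Elmo1+/- libraries, a log2 fold change of -2.44 (SE 0.09; limma, adjusted p = 8.4e-06). Library depth ran from 20905502 to 40846651 reads assigned to genes, so that a single read was worth 0.778 to 1.52 normalized counts, and the member with the fewest reads, Cd163, had 216 to 526. The first principal component of the libraries carried 62.3% of the variance and set numbers 1 and 2 apart from numbers 3 and 4 in both genotypes. Scores were -52.3 for Elmo1-/- library 1, -23.1 and -26.3 for Elmo1+/- libraries 1 and 2, and 24.65 to 31.88 for numbers 3 and 4. Elmo1-/- library 2 lay in between, at -6.03, and is counted here with numbers 1 and 2. The methods describe 2 experiments with 2 mice of each genotype, without saying which libraries belong to which, so these sets are called here by their numbers and their differences are given as descriptions with no test. Levels of osteoclast genes were uneven. Ctsk (cathepsin K), Mmp9 and Acp5 (the acid phosphatase stained as TRAP) averaged 141085, 116638 and 81770 normalized counts per kb of exon. Oscar, Ocstamp, Nfatc1 and Calcr were far lower, at 1138, 752, 611 and 328. Markers of lymphocytes were at or near 0, with 2.97 to 10.1 normalized counts summed over 8 genes and Cd3g and Ncr1 at 0 in every library.

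Compared per kb of exon, the 10 markers covered a wide range of levels, with Marco first and Cd163 last. Marco averaged 100086 ± 10395 normalized counts per kb (SD, n = 8) and ranked 9 among all 14139 tested genes, within the range of the osteoclast proteases. Adgre1 followed at 30253 ± 3447 and rank 36. Cd14 (9532 ± 1316), Cd36 (7776 ± 1265), Fcgr3 (6487 ± 1100) and Msr1 (5674 ± 417) formed the next tier, in which each gene's range over the libraries overlapped that of its neighbour. Fcgr2b (1355 ± 274), Fcgr1 (1286 ± 589) and Mrc1 (1105 ± 535) made a lower tier, again with overlapping neighbours. Cd163, the haemoglobin and haptoglobin scavenger of tissue macrophages, was at 69.9 ± 18.0 and rank 9315. The gaps from Marco to Adgre1 (3.31 times), Adgre1 to Cd14 (3.17 times), Msr1 to Fcgr2b (4.19 times) and Mrc1 to Cd163 (15.8 times) were wider than the spread of the libraries, and the ranges did not overlap there. The position inside the overlapping tiers depended on the gene length used, and with the longest transcript in place of all exons 6 of the 10 kept their place.

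**Figure D1:**
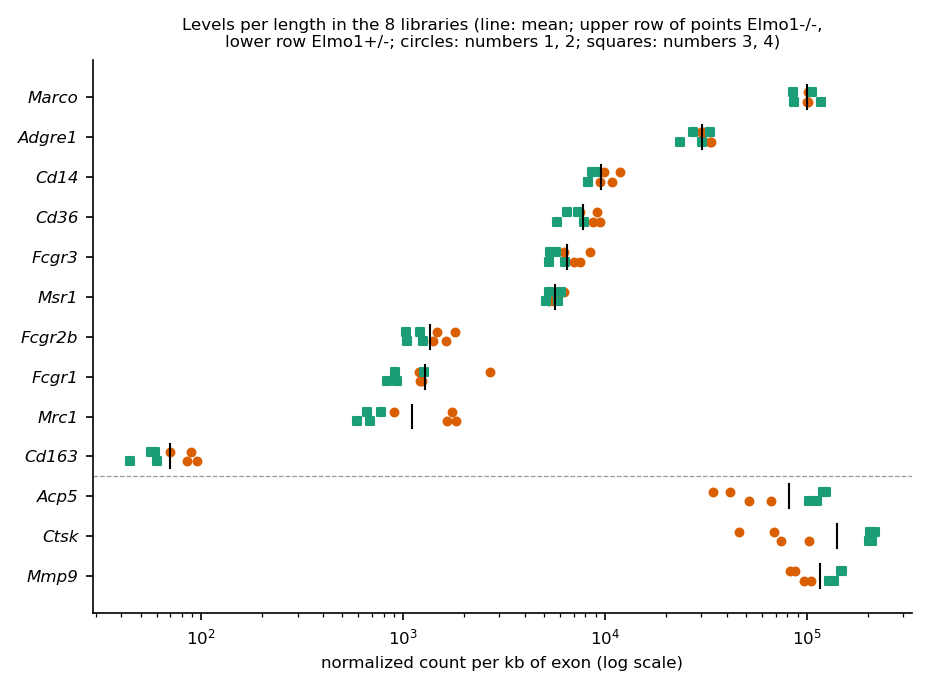
Normalized count per kb of exon (log scale) of the 10 markers, ordered by mean, and of 3 osteoclast genes under the dashed line, with 1 point per library and a line at the mean of 8. Marco lies between 85217 and 117891 in every library, in the same range as Ctsk, Mmp9 and Acp5, and Cd163 between 44.4 and 95.2, with the 4 squares (numbers 3 and 4) to the left of the 4 circles for Cd14, Fcgr2b, Mrc1 and Cd163 and to the right of them for the osteoclast genes.

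Because reads are assigned by sequence, the length of unique sequence behind each marker was checked first. Of all 75-base stretches of the annotated transcripts (GENCODE M21, GRCm38), 8 members shared none with another gene. Fcgr3 shared 94 of 1733 (5.42%), all with Fcgr2b. Fcgr2b shared 313 of 5768 (5.43%), 94 of them with Fcgr3. Other stretches of Fcgr2b were shared with genes that included Cplx2, Gm47409, Rab3c, Gm38204 and Emp2, some with more than 1 gene. Both receptors lie on the minus strand of chromosome 1, Fcgr2b at chr1:170958617-170976547 and Fcgr3 at chr1:171051174-171064935. A window of 240 bases of coding sequence was taken from the start of the longest identical run. Its end was set by that length, so shared sequence can continue past it. In Fcgr2b it covers positions 278 to 517 of the coding sequence, in exons 5 (chr1:170967980-170968081) and 6 (chr1:170966563-170966700). In Fcgr3 it covers positions 263 to 502, in exons 3 (chr1:171057691-171057792) and 4 (chr1:171054056-171054193). The stretches are printed because a read within them that misses the 1 difference matches both receptors, even if its paired read does not. They run over 240 bases with 1 difference (99.6% identical), which is in capitals:
Fcgr2b: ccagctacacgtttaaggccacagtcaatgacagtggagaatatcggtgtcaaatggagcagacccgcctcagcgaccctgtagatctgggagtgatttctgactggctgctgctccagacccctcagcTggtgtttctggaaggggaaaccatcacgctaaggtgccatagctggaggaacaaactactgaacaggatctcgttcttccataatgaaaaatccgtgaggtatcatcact
Fcgr3: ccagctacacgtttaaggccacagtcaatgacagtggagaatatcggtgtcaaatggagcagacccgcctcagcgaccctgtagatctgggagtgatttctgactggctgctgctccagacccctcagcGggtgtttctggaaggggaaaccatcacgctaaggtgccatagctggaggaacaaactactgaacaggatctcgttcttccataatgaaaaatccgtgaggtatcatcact
The longest run without a difference is 129 bases, longer than a 75 bp read, so a minor part of both counts is uncertain. Fcgr2b also overlaps Gm38204, annotated on the opposite strand, Fcgr3 overlaps Mir6546 and Mrc1 overlaps Mir511, and the strand setting of the counting is not given in the sources used here.

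Whether loss of ELMO1 alters the macrophage side of the cultures was addressed by comparing the 10 markers between genotypes. None was called different by limma (0 of 10 at an adjusted p under 0.05, against 0.00707% of all tested genes, which is Elmo1 alone), and at an unadjusted p under 0.05 the count was 0 of 10 by limma (background 0.941%) and 0 of 10 by edgeR (background 1.00%). In no member did the 4 Elmo1-/- values lie apart from the 4 Elmo1+/- values, which 0.941% of tested genes did. The log2 fold changes ran from -0.14 for Mrc1 to 0.41 for Fcgr1, 5 above and 5 below 0, with a median of 0.00356 against -0.00315 over all tested genes, and each had an adjusted p of 0.9999. The intervals show what that fit could have missed. They were narrow for the abundant scavenger receptors and F4/80 and wide for Fcgr1 and Mrc1. The fit had no number set term, so differences between the sets counted as spread. With number set as a term, the SE was 0.21 for Mrc1 (0.43 without), 0.22 for Fcgr1 (0.30) and 0.11 for Marco (0.12). No marker was called with that term. The sets were picked out from these same values, so those errors may be too small.

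**Figure D2:**
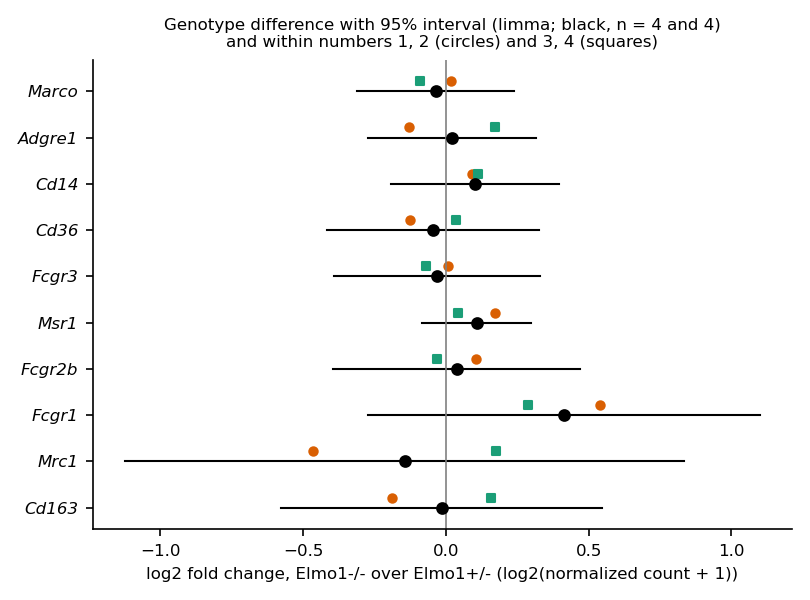
Log2 fold change of each marker, Elmo1-/- over Elmo1+/-, on the log2(normalized count + 1) scale (black points, limma, with 95% intervals, 4 libraries against 4) and the same difference within numbers 1 and 2 (circles) and within numbers 3 and 4 (squares). Every interval spans 0; the narrowest is that of Msr1 (-0.08 to 0.30) and the widest that of Mrc1 (-1.13 to 0.84).

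**Figure D3:**
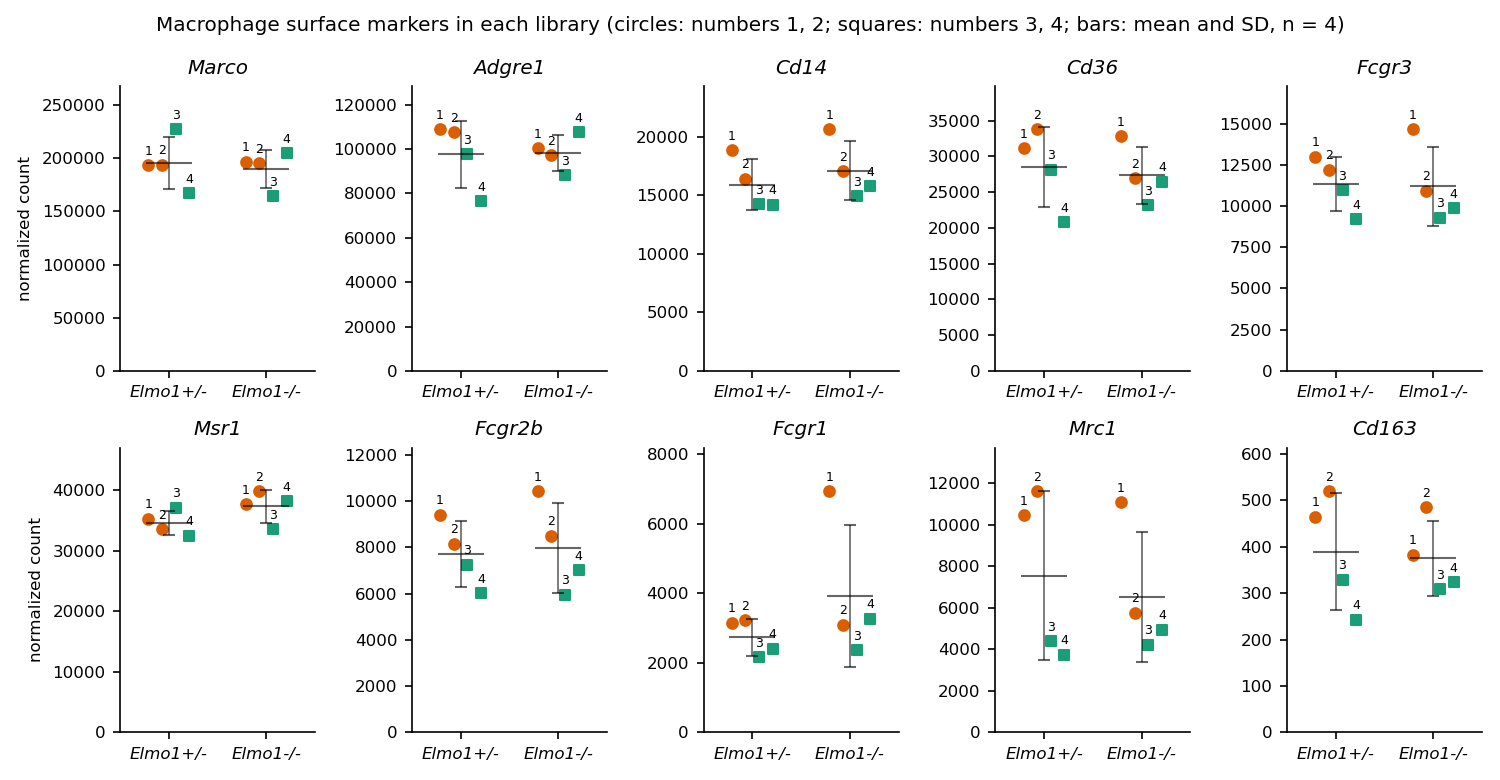
Normalized count of each marker in each library (vertical axes from 0, numbers beside points are library numbers, circles numbers 1 and 2, squares numbers 3 and 4), with the mean and SD of 4 libraries per genotype. The genotypes overlap in all 10 panels, and for Mrc1 the circles lie between 5770 and 11636 and the squares between 3750 and 4942.

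F4/80, encoded by Adgre1 (chr17:57358691-57483527, plus strand), is an adhesion G protein-coupled receptor. Adgre1 had 100429, 97262, 88081 and 107630 normalized counts in Elmo1-/- libraries 1 to 4 and 108777, 107469, 97672 and 76358 in Elmo1+/- libraries 1 to 4. The highest and the lowest value were both from Elmo1+/- libraries, and the Elmo1-/- values lay between them. The means were 98351 ± 8105 and 97569 ± 14984 (SD, n = 4 each), a log2 fold change of 0.02 with a 95% interval of -0.27 to 0.32.

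Cd14, on chromosome 18, encodes the lipopolysaccharide co-receptor. It had 20626, 17044, 14910 and 15797 normalized counts in the Elmo1-/- libraries and 18849, 16432, 14227 and 14189 in the Elmo1+/- libraries. At each number the Elmo1-/- library was the higher, by less than the spread within a genotype. The log2 fold change was 0.10 (95% interval -0.19 to 0.40), and it was 0.09 within numbers 1 and 2 and 0.11 within numbers 3 and 4. Without Elmo1-/- library 1, which held the highest value, it was 0.01.

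Among the Fc gamma receptors, Fcgr1 (chr3:96282909-96293969, minus strand), the high-affinity IgG receptor, was the member with the largest positive estimate. Its normalized counts were 6943, 3102, 2371 and 3267 in the Elmo1-/- libraries and 3154, 3228, 2155 and 2412 in the Elmo1+/- libraries. Elmo1-/- library 1 stood above all others, and the remaining 7 lay between 2155 and 3267. The log2 fold change was 0.41 (SE 0.30; 95% interval -0.27 to 1.10), and it was 0.10 without Elmo1-/- library 1.

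Fcgr3, the low-affinity activating receptor, had 14640, 10929, 9289 and 9876 normalized counts in the Elmo1-/- libraries and 12989, 12207, 10951 and 9211 in the Elmo1+/- libraries. Fcgr2b, the inhibitory receptor, had 10437, 8511, 5961 and 7021 in the Elmo1-/- libraries and 9405, 8164, 7248 and 6025 in the Elmo1+/- libraries. Both were highest in Elmo1-/- library 1, and in both the genotypes overlapped. The log2 fold changes were -0.03 (95% interval -0.39 to 0.33) for Fcgr3 and 0.04 (-0.39 to 0.47) for Fcgr2b. Per kb, the level of the inhibitory receptor over that of the low-affinity activating receptor was 0.192 to 0.234 in the 8 libraries, with the highest ratio in Elmo1-/- library 2 and the lowest in Elmo1-/- library 3.

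The mannose receptor gene Mrc1 (chr2:14229392-14332057, plus strand) had the largest SD of log2 values over the 8 libraries (0.69), although the ratio of highest to lowest was slightly larger for Fcgr1 (3.22) than for Mrc1 (3.10). It had 11104, 5770, 4234 and 4942 normalized counts in the Elmo1-/- libraries and 10475, 11636, 4384 and 3750 in the Elmo1+/- libraries. High values came from library 1 of both genotypes and Elmo1+/- library 2, Elmo1-/- library 2 was intermediate, and the libraries numbered 3 and 4 were low in both genotypes. Over all libraries the log2 fold change was -0.14 (SE 0.43; 95% interval -1.13 to 0.84). It was -0.46 within numbers 1 and 2 and 0.17 within numbers 3 and 4, and the test of that difference is given with the number sets below.

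The class A scavenger receptor genes differed little between any libraries. Msr1 (chr8:39581685-39642673, minus strand) had 37672, 39908, 33548 and 38253 normalized counts in the Elmo1-/- libraries and 35293, 33627, 37163 and 32496 in the Elmo1+/- libraries, and its highest library was 1.23 times its lowest. Marco (chr1:120474538-120505024, minus strand), the macrophage receptor with collagenous structure, had 196543, 195053, 164043 and 204407 in the Elmo1-/- libraries and 193157, 193976, 226940 and 167200 in the Elmo1+/- libraries. In Marco the 4 libraries numbered 1 and 2 lay between 193157 and 196543, and the extremes were library 3 of each genotype. The log2 fold changes were 0.11 for Msr1 (95% interval -0.08 to 0.30) and -0.04 for Marco (-0.31 to 0.24).

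Cd36 (chr5:17781690-17888801, minus strand), the receptor for oxidized lipoprotein and long-chain fatty acids, had 32791, 26941, 23216 and 26470 normalized counts in the Elmo1-/- libraries and 31169, 33771, 28168 and 20799 in the Elmo1+/- libraries. Cd163 (chr6:124304656-124330527, plus strand) had 383, 485, 308 and 324 in the Elmo1-/- libraries and 464, 520, 329 and 243 in the Elmo1+/- libraries. The highest and the lowest value of both genes came from Elmo1+/- libraries 2 and 4. Log2 fold changes were -0.05 (95% interval -0.42 to 0.32) for Cd36 and -0.01 (-0.58 to 0.55) for Cd163.

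Partners and relatives of the markers, taken from lists by role, were compared in the same limma fit, in which 0.00707% of all tested genes were called: 0 of 8 Fc receptor partners, 0 of 8 CD14 and Toll-like receptor partners, 0 of 15 further scavenger and lipid-handling genes, 0 of 10 tested C-type lectin and haem genes and 0 of 15 tested monocyte and macrophage genes were called by limma or edgeR. None of these genes had an unadjusted p under 0.05 in limma or edgeR, or genotypes that did not overlap. The most abundant per kb in each list were Fcer1g (log2 fold change 0.01), the shared signalling chain of the activating Fc receptors, Tlr2 (0.04), Cd68 (0.01), the lysosomal macrosialin, Hmox1 (-0.14), haem oxygenase, and Lyz2 (0.03), lysozyme. The widest estimates were those of low or variable genes, such as Hpgd (1.12, 95% interval -0.16 to 2.41) and Cx3cr1 (0.43, -0.30 to 1.15), for which the test leaves room for a difference in either direction. The osteoclast list gave 0 of 16 called, with a median log2 fold change of -0.07.

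Values of 34.0% of tested genes did not overlap between the number sets of 4, against the 0.941% between genotypes. The number sets were picked out from these same values, which raises their share, so the 2 shares are not a like comparison. All 10 markers had a lower mean log2 level in the libraries numbered 3 and 4 than in those numbered 1 and 2, with a median difference of -0.35 against -0.01 over all tested genes. In 4 of the 10, Cd14, Fcgr2b, Mrc1 and Cd163, the 4 and 4 values did not overlap, and each of these was lower in numbers 3 and 4. That arrangement held for 15.8% of all tested genes in the same direction and for 18.1% in the opposite direction.

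Mrc1 showed the widest gap. Its values were 5770 to 11636 in numbers 1 and 2 and 3750 to 4942 in numbers 3 and 4, a log2 difference of -1.13, or 2.18-fold. Cd163 (-0.62), Fcgr1 (-0.61, with overlap), Fcgr2b (-0.47), Fcgr3 (-0.36, with overlap), Cd36 (-0.34, with overlap) and Cd14 (-0.30) followed on the same log2 scale. Adgre1 (-0.17), Msr1 (-0.05) and Marco (-0.04) were close to level and overlapped. For Fcgr1 the difference was -0.33 without Elmo1-/- library 1. The mannose receptor, the haemoglobin scavenger and the high-affinity Fc receptor headed this order, and the class A scavenger receptors ended it, with F4/80 next to them.

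Osteoclast genes ran the other way. All 16 listed osteoclast genes were higher in numbers 3 and 4 with values that did not overlap, against 18.1% of all tested genes. Their median log2 difference was 0.93, with a range of 0.29 (Ostm1) to 1.58 (Ctsk). The level of Marco per kb over that of Ctsk was 0.979 to 2.22 in numbers 1 and 2 and 0.393 to 0.561 in numbers 3 and 4. The level of Mrc1 per kb over that of Marco was 0.00894 to 0.0181 and 0.00584 to 0.00780 in the same sets. In 3 of the 4 libraries numbered 1 and 2 Marco exceeded Ctsk per kb, and in Elmo1+/- library 1 and the 4 libraries numbered 3 and 4 it was below.

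**Figure D4:**
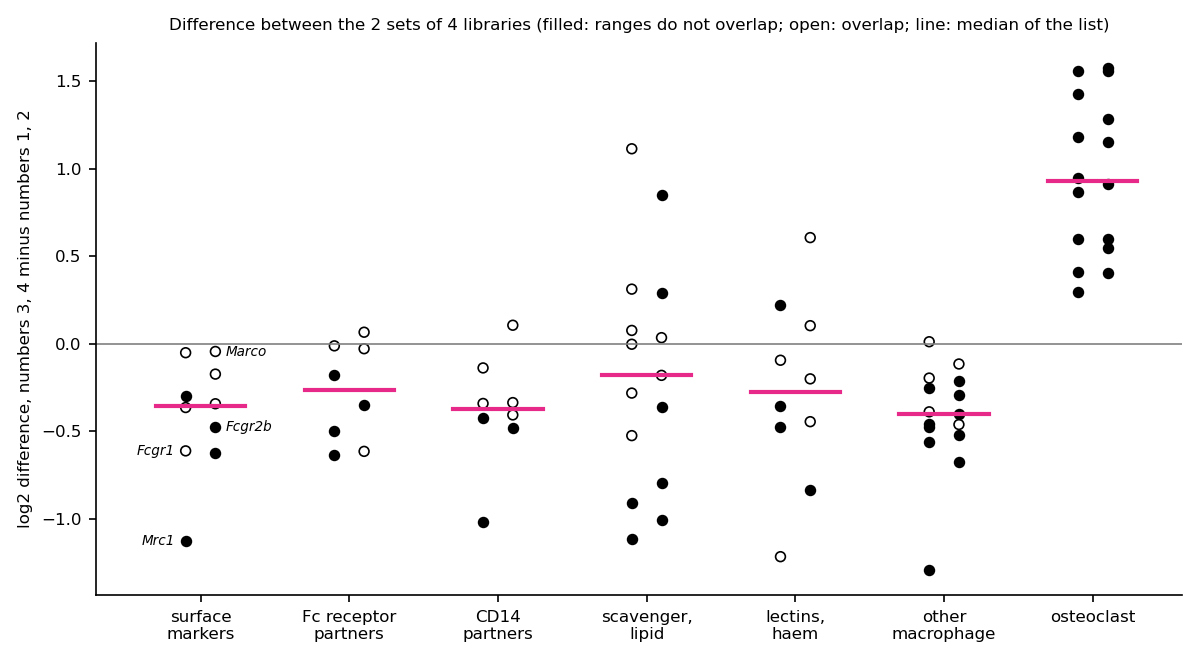
Log2 difference of each tested gene, mean of the 4 libraries numbered 3 and 4 minus mean of the 4 numbered 1 and 2, for the 10 surface markers, 5 related lists and the osteoclast list; filled points are genes whose 4 and 4 values do not overlap, open points those that do, and lines are list medians. The markers lie between -1.13 and -0.04, and the 16 osteoclast genes between 0.29 and 1.58, all filled.

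The related lists leaned the same way as the markers, with exceptions. Of all tested genes, 15.8% were lower and 18.1% higher in numbers 3 and 4 without overlap. Of the Fc receptor partners 4 of 8 were lower in numbers 3 and 4 without overlap, among them Fcgrt (the neonatal Fc receptor, -0.63), Fcer1g (-0.50) and the phosphatase Ptpn6 (-0.18). Fcgr4, another activating receptor, was at -0.61 with overlap, while the downstream kinase Syk was at 0.07 and the inositol phosphatase Inpp5d at -0.01, both overlapping. Among CD14 and Toll-like receptor partners 3 of 8 were lower without overlap, namely Ly86 (MD-1, -1.02), Tlr6 (-0.48) and Tlr2 (-0.42), and Cd180 was at 0.11. Other monocyte and macrophage genes were lower without overlap in 10 of 15, led by the sialic acid receptor Siglec1 (-1.29) and the folate receptor Folr2 (-0.67), and Lyz2 was at -0.52.

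Scavenger and lipid-handling genes were mixed. In numbers 3 and 4, 5 of 15 were lower without overlap, against 15.8% of all tested genes, and 2 of 15 higher, against 18.1%. The lower ones included Cd5l (-1.11), a secreted scavenger protein of macrophages, and the cholesterol exporter Abcg1 (-1.01), and the higher ones were lipoprotein lipase, Lpl (0.85), and the lipid droplet coat gene Plin2 (0.29). Olr1, a lectin-like receptor for oxidized lipoprotein, was at 1.11 with overlap and with few counts (35.0 to 172 normalized counts). Of the C-type lectin and haem genes 3 of 10 were lower without overlap, Clec10a (-0.83), Clec4d (-0.47) and the biliverdin reductase Blvrb (-0.35), and 1 was higher, the inhibitory lectin Clec12a (0.22). Clec7a (dectin-1) was at 0.61 and the prostaglandin dehydrogenase Hpgd at -1.22, both with overlap.

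Markers of other cells were compared between the sets as well. The 9 tested genes of neutrophils and their precursors were all lower on average in numbers 3 and 4 (median -0.78), with 1 of 9 (S100a8) not overlapping, against 15.8% of all tested genes in that direction, and their list summed to 13161 to 22694 normalized counts in numbers 1 and 2 and 10375 to 13769 in numbers 3 and 4. No gene of this list was at 0, and the granulocyte surface gene Ly6g lay between 1.20 and 10.4. Stromal genes summed to 587 to 1310 normalized counts, dendritic cell genes to 81.4 to 169 and mast cell and basophil genes to 19.8 to 37.8, with Cd209a and Mcpt4 at 0. Of the 6 red cell and megakaryocyte genes only Pf4 passed the filter on low values, at 20378 to 27357 normalized counts, while Hbb-bs was at 0 in every library and Itga2b reached 7.36. No gene of these lists, tested where its signal allowed, was called between genotypes. The part of neutrophils in the differences of Cd14, the Fc receptors and Mrc1 was not tested.

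Whether the genotype difference itself differed between the number sets was tested by the interaction term in limma. None of the 10 markers was called (0 of 10, background 0.00%), and none had an unadjusted p under 0.05, which 2.67% of tested genes had. Mrc1 had the largest estimate, 0.64 (SE 0.36; 95% interval -0.17 to 1.45; adjusted p = 0.9999), followed by Cd163 at 0.35 and Adgre1 at 0.30. Leaving out Elmo1-/- library 1 changed the call for Mrc1: the estimate became 1.11 with an adjusted p of 0.013 in limma. In that setting Elmo1-/- library 2 alone stood for its genotype within numbers 1 and 2 and was assumed to vary like the other libraries, and 181 of the tested genes were called. Over the other settings its adjusted p ran from 0.674 to 1.00, and without Elmo1-/- library 2 the estimate was 0.17, with 239 genes called. Across all genes the term was called in 0 genes by limma and by edgeR and in 14 by DESeq2, none of them a marker.

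Likeness between markers over the 8 libraries was measured as the root mean square (RMS) difference of log2 profiles, each centred on its mean over the 8 libraries, so that 0 means the same profile and a gene with no variation would lie as far from a marker as the marker's own spread. Fcgr3 and Fcgr2b were the closest pair of markers (RMS 0.0877), followed by Fcgr3 and Cd36 (0.102), against own spreads of 0.223 for Fcgr3, 0.272 for Fcgr2b and 0.227 for Cd36. Msr1 and Marco came next (0.105), but a flat profile would lie nearer to Msr1 (0.0992), so that value shows no likeness. Fcgr3 and Fcgr2b are also the pair that shares the coding stretch printed above. Mrc1 and Msr1 were the most distant (0.641), as far apart as Mrc1 and a flat profile. Highest values fell to Elmo1-/- library 1 for 4 markers, Cd14, Fcgr1, Fcgr3 and Fcgr2b, and lowest values to Elmo1+/- library 4 for 7.

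Fcgr1 stood with genes known to be induced by interferon. Its 3 nearest genes of 14138 compared were Oas1g (RMS 0.0885) and Oas1b (0.0973), of the oligoadenylate synthetase family, and Usp18 (0.106), which removes ISG15 from proteins, against a spread of Fcgr1 itself of 0.490, and only Oas1g and Oas1b were within 0.1. Oas1g had 2753, 1285, 888 and 1146 normalized counts in the Elmo1-/- libraries and 1308, 1311, 804 and 1020 in the Elmo1+/- libraries. Usp18 had 3544, 1815, 1472 and 1888 in the Elmo1-/- libraries and 1696, 1827, 1334 and 1560 in the Elmo1+/- libraries. Like Fcgr1, both were highest in Elmo1-/- library 1, with the other 7 values of Oas1g between 804 and 1311. The Oas1 genes lie on chromosome 5 and Usp18 on chromosome 6, away from Fcgr1 on chromosome 3.

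Mrc1 had no gene within 0.1. Its nearest were Agmo (RMS 0.103), which cleaves ether lipids, the betaine transporter gene Slc6a12 (0.113) and Pld4 (0.123), a lysosomal nuclease of the phospholipase D family, against a spread of 0.641. Pld4 had 16048, 6953, 4965 and 5600 normalized counts in the Elmo1-/- libraries and 12650, 12454, 5389 and 4925 in the Elmo1+/- libraries. As in Mrc1, Elmo1-/- library 2 was well below the other libraries numbered 1 and 2. Cd163 likewise had no gene within 0.1, and its nearest was Arhgef37 (0.104).

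**Figure D5:**
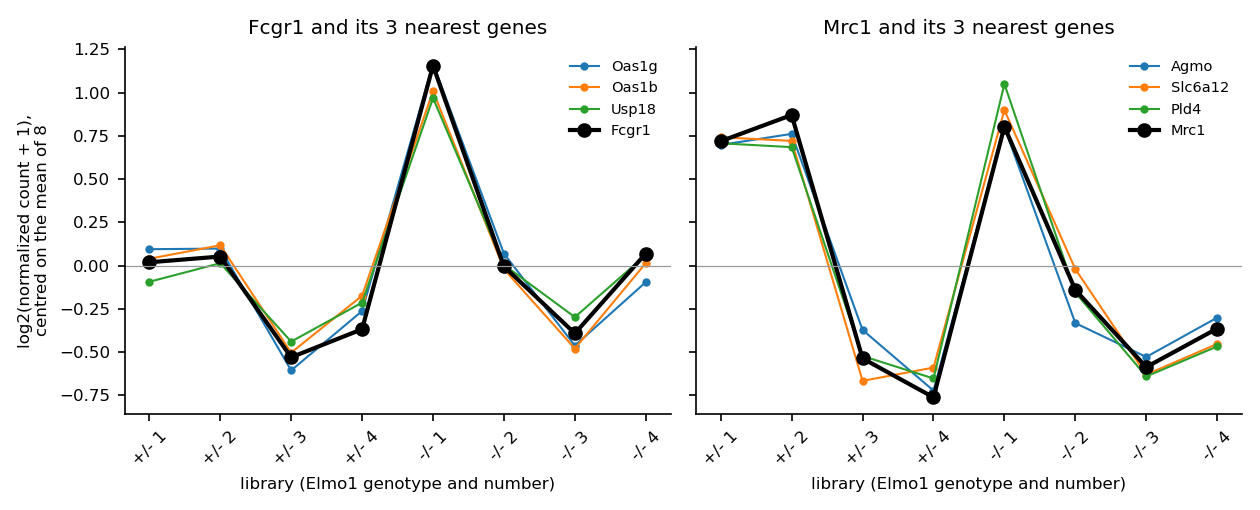
Centred log2(normalized count + 1) of Fcgr1 (left) and Mrc1 (right), in black, with the 3 nearest genes of each in colour, over the 8 libraries (horizontal axis, Elmo1 genotype and number). Fcgr1, Oas1g, Oas1b and Usp18 share a peak in Elmo1-/- library 1, and Mrc1, Agmo, Slc6a12 and Pld4 are high in Elmo1+/- libraries 1 and 2 and Elmo1-/- library 1.

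The other markers had more genes within that fixed distance, but they also varied less. Own spreads were 0.180 for Cd14 and 0.141 for Marco, against 0.354 for Cd163 and 0.641 for Mrc1. The counts therefore do not compare how many genes share a marker's profile. Within an RMS of 0.1 were 644 genes for Cd14 (nearest Ncln, 0.0425), 360 for Fcgr3 (Slc2a9, 0.0331), 99 for Adgre1 (Adgrg6, 0.0390), 81 for Cd36 (Smpdl3a, 0.0442), 71 for Fcgr2b (Ptgir) and 59 for Marco (Lhfpl2, 0.0506). For Msr1 that limit is above its own spread, so a count within it says nothing of a shared profile; its 3 nearest genes were Patz1 (0.0443) and the leukocyte surface receptors Lair1 (0.0550) and Cd84 (0.0563).

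Promoter sequences were read for the markers because Fcgr3 and Fcgr2b had the closest profiles and Mrc1 and Marco differed the most and the least between the number sets. RefSeq (GRCm38.p6) sequences of 300 bases around the start site were read for 7 of the 10 markers. Adgre1 and Msr1 had no entry. Cd14 was not read, because promoters of its chromosome, 18, were left out of the search of the markers. The core GAGGAA, recognised by the macrophage factor PU.1, was searched on both strands (TTCCTC on the other), as was the AP-1 motif TGANTCA. The core was present in 4 of 7 markers, Fcgr1, Fcgr3, Mrc1 and Marco, and in 28.3% of all 32851 promoters of the same length. Fcgr2b, Cd36 and Cd163 did not hold those letters in this window, and the AP-1 motif was in none of the 7, against 7.81% of all promoters. The 4 promoters with the core are shown with it in capitals, Fcgr1 at chr3:96293920-96294219 (minus strand), Fcgr3 at chr1:171059354-171059653 (minus strand, the first of 2 start sites), Mrc1 at chr2:14229164-14229463 (plus strand) and Marco at chr1:120504975-120505274 (minus strand):
Fcgr1: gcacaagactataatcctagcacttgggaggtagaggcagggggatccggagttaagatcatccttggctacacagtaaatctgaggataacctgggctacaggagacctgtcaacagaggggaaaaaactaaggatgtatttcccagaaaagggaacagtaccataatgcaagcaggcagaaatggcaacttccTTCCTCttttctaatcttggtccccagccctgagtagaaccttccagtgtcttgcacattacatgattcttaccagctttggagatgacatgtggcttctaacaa
Fcgr3: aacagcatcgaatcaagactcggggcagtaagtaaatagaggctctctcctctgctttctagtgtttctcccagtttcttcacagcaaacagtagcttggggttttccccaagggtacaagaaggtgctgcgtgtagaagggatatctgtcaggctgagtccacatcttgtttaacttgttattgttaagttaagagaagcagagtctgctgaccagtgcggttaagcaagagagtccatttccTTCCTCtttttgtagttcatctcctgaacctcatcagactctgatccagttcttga
Mrc1: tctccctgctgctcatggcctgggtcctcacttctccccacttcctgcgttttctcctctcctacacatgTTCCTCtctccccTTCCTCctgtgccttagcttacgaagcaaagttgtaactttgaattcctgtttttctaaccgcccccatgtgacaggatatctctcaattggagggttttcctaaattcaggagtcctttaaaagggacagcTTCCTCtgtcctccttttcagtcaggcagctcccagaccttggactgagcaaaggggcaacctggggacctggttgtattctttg
Marco: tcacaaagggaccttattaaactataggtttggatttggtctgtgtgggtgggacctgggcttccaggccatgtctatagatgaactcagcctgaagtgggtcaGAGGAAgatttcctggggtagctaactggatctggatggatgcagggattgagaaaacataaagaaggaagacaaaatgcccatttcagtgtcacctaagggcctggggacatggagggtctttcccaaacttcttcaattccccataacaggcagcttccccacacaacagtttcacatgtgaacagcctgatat
Counted from the start site, the core began at -55 in Fcgr1, at -6 in Fcgr3 and at -146 in Marco. Mrc1 held 3, at -180, -167 and -35, and 4.82% of all promoters held 2 or more. Fcgr1 and Fcgr3 shared a run of 14 bases around the core, TTCCTTCCTCTTTT, which occurred in 5 promoters of 4 genes in all, while no other pair of the 7 shared a run above 10 bases. Fcgr3 and Fcgr2b, closest in profile, shared at most 8 bases here. A match of letters is a description, and binding was not measured.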

How the data were processed

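Per the labels and the submitters' processing notes, mRNA libraries (Illumina TruSeq) were processed with FastQC, STAR, featureCounts and DESeq2. The genome build is not given in the sources used here, nor are tool versions, annotation and strand setting. In the deposited table, values are normalized signal: the authors divided each gene count by 1 size factor per library, for 46517 genes in 8 libraries. Low values of each library were whole multiples of 1 step, and 100% of values came out as whole reads at a tolerance of 0.01; these recovered reads were used for depth and for edgeR and DESeq2. The 6 columns holding the authors' own comparison (mean, log2 fold change, its error, statistic, p-value and adjusted p-value) were not used.

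Identifiers were matched to GENCODE M21 (46005 matched, 512 did not). The main test was limma 3.58.1 (R 4.3.3; trend and robust) on log2(normalized count + 1), which understates changes of low genes, over 14139 genes with at least 10 in at least 4 libraries, Benjamini-Hochberg adjusted over all of them at 0.05, with 95% intervals and without a block. The study's methods instead set groups of 2 mice per condition against each other by a ratio of averages, which was not used here. Elmo1 was also tested by an exact permutation test over samples (two-sided p = 0.0286, the smallest that 4 against 4 allows). Alternatives were edgeR 4.0.16 (quasi-likelihood), DESeq2 1.42.0, other pseudocounts, filters and scalings, a replicate block, number set terms and each library left out. In simulated data for the genotype comparison (14139 genes), limma recovered 64.5% of genes changed by 1 and 92.7% of those changed by 2 on the log2 scale. For the genotype by number set term it recovered 53.5% and 78.1%, and 8.16% of its calls were false.

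For numbers 1 to 4, same-numbered libraries of the 2 genotypes had correlations of deviations from the genotype means of 0.703, 0.156, 0.598 and 0.52. The numbers were used as a block only in an alternative setting, and the main test had no block. Differently numbered libraries of the same number set had correlations of 0.691, 0.0259, 0.561 and 0.614, so the values do not part the single numbers from the sets, and the labels do not say what the numbers mark. No pair of libraries within a genotype was alike within sampling noise, and pairs across genotypes were not checked for this. The design text calls the 4 libraries of a genotype biological replicates.

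The members and lists were chosen with earlier results of these data known. The genes named are the 10 members, Elmo1, from each list the most abundant per kb and those with the largest number set difference, and the nearest genes of each member; Gpr137b-ps, Inpp5d, Blvrb, S100a8, Ly6g, Ostm1, Pf4 and Itga2b were named after their values were seen. Levels per kb used the length of all exons. Promoters came from RefSeq.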

Additional observations from a re-analysis of the deposited data

How the results depend on the processing

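No marker was called for genotype under any setting run, and adjusted p ran from 0.936 to 1.00 over them. In 100 of 100 values under other pseudocounts, filters, scalings, edgeR, DESeq2, the number set term or the replicate block, the direction of a marker was kept. The number of genes called in all was 1 in limma and 2 with DESeq2 (Elmo1 and Gpr137b-ps), and 1 to 2 with each library left out. With the replicate numbers as a block, 0 markers and 1 gene were called, the log2 fold change of Elmo1 was -2.44, and the block changed no call. Within numbers 1 and 2 the sign turned for Adgre1 (-0.13), Fcgr3 (0.00645) and Marco (0.0165), and within numbers 3 and 4 for Fcgr2b (-0.0307), Mrc1 (0.17), Cd36 (0.0344) and Cd163 (0.16). With each library left out, the lowest and highest log2 fold changes were -0.0915 and 0.0787 for Adgre1, -0.17 and 0.0506 for Fcgr3, -0.10 and 0.17 for Fcgr2b, -0.44 and 0.12 for Mrc1, -0.19 and 0.0437 for Cd36, -0.22 and 0.15 for Cd163 and -0.11 and 0.0386 for Marco, while Cd14, Fcgr1 and Msr1 stayed above 0. For the genotype by number set term, 0 to 1 markers were called with each library left out, the 1 being Mrc1 without Elmo1-/- library 1, and the cause was not tested. Markers not overlapping between number sets were 4, 5 with libraries rescaled to equal totals, and 4 to 6 with each library left out. In the main setting 15.8% of all tested genes were lower in numbers 3 and 4 without overlap. That share is not given for the other settings, and smaller sets part more easily, so the higher counts cannot be judged. The difference for Marco ran from -0.13 to 0.02 with each library left out. With the longest transcript as gene length, 6 of 10 markers kept their place in the order of levels. The fewest reads were behind Cd163 (216 to 526), and the largest standard errors in the main fit were those of Mrc1 (0.43) and Fcgr1 (0.30).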
